A study of Mus musculus with 16 samples.

Results

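The comparison of mGF given palmitate together with IL-1β and mGF given IL-1β alone shows what the fatty acid added to cells already exposed to the cytokine. It used 8 of the 16 samples of the study, chosen by the treatment in their labels, with 4 libraries of palmitate + IL-1β (replicates 13 to 16) and 4 of IL-1β (replicates 5 to 8). The mGF are primary fibroblasts grown from explants of the gum around a maxillary molar of wild-type C57Bl6 mice aged 3 to 6 months. They were used between passages 2 and 8. Both groups received 1 ng/mL mouse IL-1β for 24 h, a time given in the study's figure legend. The palmitate + IL-1β cells also received 200 μM palmitate bound to BSA. The IL-1β cells received the BSA vehicle, as the study's methods describe, although that legend does not name it. Passaged fibroblasts in culture lack the epithelium, vessels and leukocytes of the gum, and a fixed dose of albumin-bound fatty acid models only part of a raised lipid supply. The labels do not say whether the 4 libraries of a group came from separate animals or cultures, so p-values measure only the spread between these libraries.

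IL-1β binds its receptor on fibroblasts and acts through MyD88 to release NF-κB, which switches on chemokines, adhesion molecules and acute-phase proteins. Interferons act through other receptors and the STAT and IRF factors, which switch on genes that restrict viruses and present antigen. The saturated fatty acid palmitate is what cells store as triglyceride, oxidise in mitochondria or build into ceramides, and it is widely added to cultures to load them with lipid.

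Adding palmitate to IL-1β raised a broad set of inflammatory and interferon-stimulated genes above the level that IL-1β alone had set. Nos2, the inducible nitric oxide synthase, was 33.1-fold higher, Cxcl5, a chemokine for neutrophils, 21.1-fold, and the complement protein gene C3 7.67-fold. All 40 interferon-stimulated genes with at least 10 counts in every library were higher. Most NRF2 target genes tested rose as well, while several small proteoglycans, cell cycle genes and enzymes of fatty acid oxidation fell, and so did Pparg. Across the genome, 5140 of 15535 genes tested were called changed at an adjusted p under 0.05 (33.1%), of which 2588 were higher (16.7%) and 2552 lower (16.4%). These percentages are the background for each count of list members given with its direction.

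The deposited counts summed to between 24376996 and 31314557 per IL-1β library and between 27575315 and 35329711 per palmitate + IL-1β library, over genes. Levels are given as CPM, counts scaled to a common library size (CPM of edgeR after TMM scaling), with the SD over 4 libraries. The counting floor was set at 3 counts in a library, which lay between 0.0839 and 0.124 CPM. Such a floor takes in the error of counting alone, and copies made by PCR carried no mark. Replicates varied by 6.73% of a gene's level (biological coefficient of variation), so small changes could pass the test. Of the called genes 3290 had a log2 fold change under 0.5 in size, and 657 changed more than 2-fold, 420 upwards and 237 downwards. The libraries of the groups did not overlap in 5074 genes (32.7% of those tested), and 4426 of these were also called. Gene lists are described by the members called in each direction, of those tested of those listed, and by the median log2 fold change of the tested members, given in brackets, which was -0.01 over all genes tested. The medians of the ceramide, nuclear-encoded respiratory chain, superoxide and purine lists were near 0 and changed sign between settings, as did that of the mitochondrially encoded genes (0.11). Where a setting moved a list's median or count by over 1.5 times, the values are given, with each library left out alone. The other settings were DESeq2, upper-quartile or RLE scaling, no filter on low counts, at least 10 counts required in every library, all 16 libraries in 1 fit, and counts thinned to the shallowest library. A gene with few counts in IL-1β could pass the filter through palmitate + IL-1β alone, and it then had to be higher. A fall by a number is on the log2 scale. Members named because 5 or fewer of a list had the same call were chosen after their values were seen. On the 500 most variable genes the groups lay 43.4 to 52.1 units apart, against 12.2 to 18.4 within a group, and 84.7% of the variance lay on the first principal component.

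All 10 fibroblast markers were tested, and 9 of them had means of at least 65.1 CPM, the level of Dcn in palmitate + IL-1β, whereas Lum was at only 1.91 CPM in IL-1β and 1.11 CPM in palmitate + IL-1β (19 to 64 counts). Fn1, for fibronectin, was the most abundant at 20866 CPM in IL-1β and 20912 CPM in palmitate + IL-1β, and the 10 summed to between 47271 and 57686 CPM in each library. Of the 10, 1 was called higher and 5 lower. None of the 8 neutrophil markers or 8 lymphocyte markers reached the filter, and S100a9, Ly6g and Ms4a1 had no count in any library. Macrophage markers summed to between 3.62 and 4.24 CPM, with Csf1r the most abundant at 1.82 and 1.46 CPM, Tyrobp at 0 and none of the 3 tested called. Endothelial markers summed to 2.01 to 2.75 CPM, led by Vwf at 0.722 and 0.464 CPM, with Cldn5 at 0 and none of 4 called. Among keratinocyte markers Krt4 was at 0 and Krt5 at 2 counts or fewer, and the sum was 11.7 to 13.1 CPM in IL-1β and 14.7 to 17.3 CPM in palmitate + IL-1β, most of it from Sfn (7.01 and 13.1 CPM). Markers shared with pericytes (Mcam, 89.3 and 78.6 CPM) and osteoblasts (Runx2, 49.6 and 28.8 CPM) were expressed, with sums of 191 to 222 and 51.6 to 56.3 CPM in IL-1β and 169 to 193 and 29.3 to 36.2 CPM in palmitate + IL-1β. Lpl, the most abundant of 6 adipocyte markers, fell from 3.59 to 2.13 CPM (list sums 3.72 to 4.32 and 1.89 to 2.66 CPM), and the Schwann cell and melanocyte lists, with 1 member tested each and none called, summed to at most 3.37 and 1.03 CPM. Of the pericyte markers 1 was called higher and 3 lower of 6 tested, of the osteoblast markers 1 lower of 3, and of the keratinocyte markers 1 higher and 1 lower of 3. The neutrophil and lymphocyte lists summed to at most 0.0956 and 0.221 CPM. The part of these cell types in the results was not tested. In bulk RNA, fewer cells of a kind and less RNA per cell cannot be told apart.

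Chemokines draw leukocytes out of the blood, and 19 of the 21 tested were higher and 1 lower, with a median log2 fold change of 1.75 against -0.01 over all genes. The list held 35 members, and the other 14 did not pass the filter on low counts. With at least 10 counts required in every library, 14 of 16 chemokines were higher and 1 lower. Cxcl5 (ENSMUSG00000029371.8) lies on chromosome 5 from 90907186 to 90909483 on the plus strand of GRCm39 and encodes a CXCR2 ligand. It stood at 29.7, 28.8, 32.4 and 26.9 CPM in IL-1β replicates 5 to 8 and at 661, 628, 563 and 640.1 CPM in palmitate + IL-1β replicates 13 to 16. The lowest library with palmitate was thus far above the highest without it, and the log2 difference was 4.40 ± 0.07 (standard error). Its adjusted p of 1.8e-19 was the smallest of all genes tested. Cxcl9, which attracts T cells through CXCR3, was at 0.616, 0.352, 0.126 and 0.372 CPM and at 8.65, 8.84, 8.76 and 12.8 CPM in the same order of libraries. Replicate 16 was the highest of its group, and the groups did not overlap (log2 fold change 4.78, standard error 0.26, adjusted p = 1.4e-09). Not every IL-1β library reached the filter's cutoff for Cxcl9. The gene thus passed only through palmitate + IL-1β, which fixed its direction. Ccl5, which attracts T cells and monocytes, rose from 2.30 ± 0.607 to 40.2 ± 3.31 CPM (SD, n = 4), and Cxcl16, a membrane-bound chemokine, from 7.86 ± 0.600 to 57.4 ± 3.26 CPM, without overlap. Smaller rises were those of Cxcl1 (4.21-fold), Ccl2 (3.37-fold) and Cxcl2 (2.52-fold). Of the Cxcl2 transcript 10.4% is shared with Cxcl3, so its level is uncertain to that extent. The lower member was Ccl28, a mucosal chemokine, with a log2 fold change of -0.47, and Ccl25 did not pass the test (0.23). Per kb of exon, Cxcl1, Ccl2 and Cxcl5 stood at 80.2, 99.7 and 15.5 CPM in IL-1β and at 338, 337 and 329 CPM in palmitate + IL-1β. Cxcl5 was therefore the lowest of the 3 in level per kb with IL-1β alone, and the 3 levels were close to each other once palmitate was added.

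**Figure D1:**
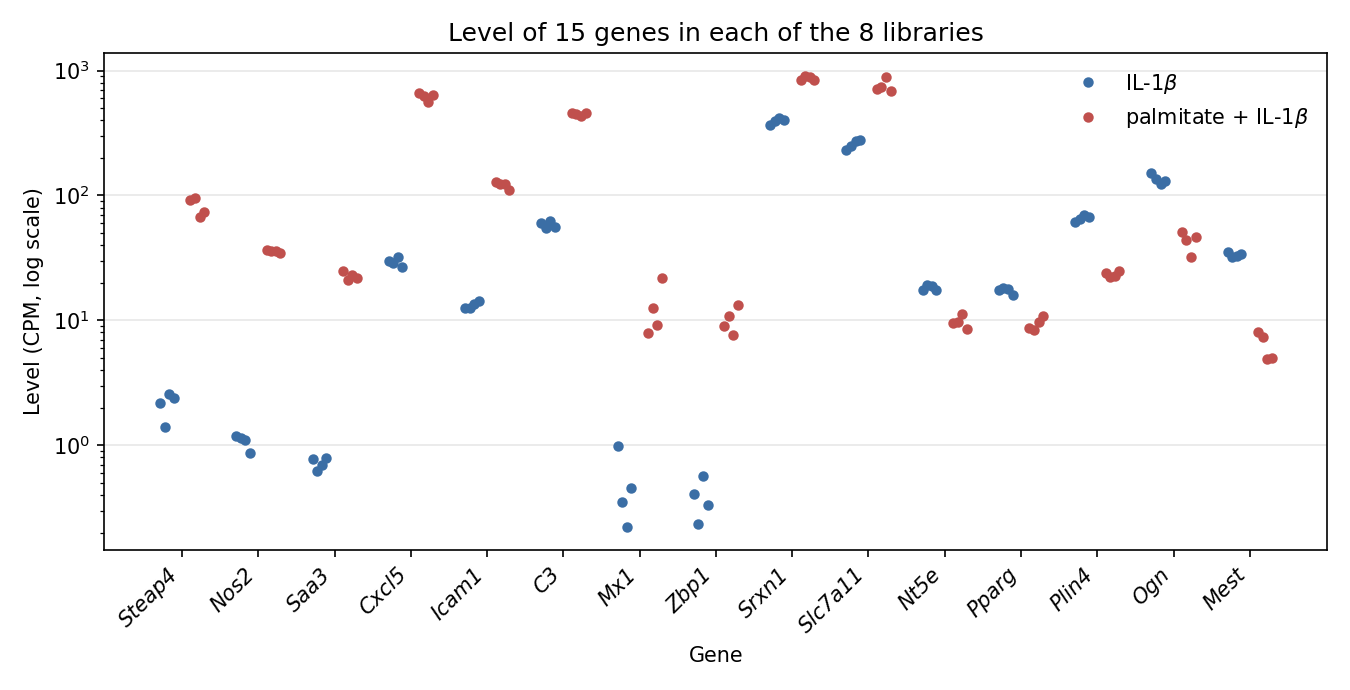
Level of 15 genes in each library, in CPM on a log scale, for IL-1β (blue, replicates 5 to 8 from left to right) and palmitate + IL-1β (red, replicates 13 to 16). In each of the 15 genes the groups do not overlap, against 32.7% of all genes tested, but genes were named largely on that condition and plotted after values were seen. The spread within palmitate + IL-1β is wide for Mx1 (7.98 to 21.8 CPM) and narrow for Nos2 (34.5 to 36.6 CPM).

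Interleukins and colony-stimulating factors had 9 members higher and 2 lower of 16 tested of 26 (median 0.76). Il6, the main cytokine of the acute-phase response, was at 0.863, 1.02, 0.694 and 1.12 CPM in IL-1β and 9.85, 9.20, 7.90 and 10.0 CPM in palmitate + IL-1β, with every library of the latter above every library of the former (log2 fold change 3.34). Lif, a cytokine of the same receptor family, rose 2.90-fold. Csf1, the growth factor of macrophages and osteoclast precursors, went from 612 to 1157 CPM, 1.89-fold. Il1rn encodes the natural antagonist of the IL-1 receptor and rose from 2.77 ± 0.349 to 5.96 ± 0.589 CPM. The lower members were Il33, an alarmin (2.44 ± 0.432 to 1.52 ± 0.371 CPM, adjusted p = 0.0119), and Ctf1, a cytokine of the Il6 family (-0.75 on the log2 scale). The call of Ctf1 was lost without IL-1β replicate 5, 6 or 7 or any 1 library of palmitate + IL-1β (adjusted p from 0.0528 to 0.175). The number of interleukins lower was 1 with DESeq2, RLE scaling, no filter or thinned counts. Tnf had 5 counts or fewer and Il1b 1 count or fewer in any of the 8 libraries, so both were left out by the filter. With no filter neither was called (adjusted p = 0.925 and 0.531), and changes in them were not detectable at this depth.

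NF-κB subunits and their feedback regulators were all tested, and 23 of 28 were higher. Their median of 0.38 was smaller than that of the chemokines. The RNase Zc3h12a, which degrades cytokine transcripts, rose from 19.2 ± 0.938 to 45.7 ± 2.80 CPM. Nfkbiz, a nuclear partner of NF-κB, rose 2.32-fold, Bcl3, another such partner, 2.34-fold, and the subunit gene Nfkb1 1.86-fold. Rel, for the subunit c-Rel, was the member called lower (between 23.4 to 27.9 CPM against between 21.9 to 22.5 CPM, adjusted p = 0.0147), a call that was lost without IL-1β replicate 7 (adjusted p = 0.0633). Among receptors and adaptors of the IL-1 and Toll-like pathways 13 of 26 tested of 31 (median 0.21) were higher. Their median was 0.0901 without IL-1β replicate 5, and the number lower was 1 with thinned counts. Lbp, which hands bacterial lipopolysaccharide to CD14, rose from between 8.26 to 10.7 CPM to between 66.3 to 76.97 CPM, and Tlr2, the receptor for lipoproteins, rose 3.02-fold. The 2 lower members were Tlr5 (-0.57) and Tlr6 (-0.59), the latter not called without IL-1β replicate 5 or 7 or palmitate + IL-1β replicate 14 or 16 (adjusted p = 0.1297, 0.132, 0.109 and 0.0875).

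Icam1 encodes a surface protein that leukocytes grip when they leave vessels. It was at 12.5, 12.6, 13.4 and 14.3 CPM in IL-1β and at 128, 123, 124 and 110.5 CPM in palmitate + IL-1β. All libraries of a group lay close together, and the log2 fold change was 3.20 (standard error 0.06, adjusted p = 1.7e-18). Vcam1 rose from between 139 to 152 CPM to between 554 to 594 CPM, 3.98-fold. In the whole list of leukocyte adhesion molecules 8 of 12 tested of 14 (median 1.25) were higher and 0 lower, and Alcam, F11r, Jam2 and Jam3 were not called. With at least 10 counts in every library 5 of 9 were higher, with a median of 0.50. Alcam was called only without IL-1β replicate 8 (adjusted p = 0.0233) and with all 16 libraries in the fit (0.0236).

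Among complement and acute-phase proteins 14 of 19 tested of 30 were higher and 0 lower, with a median log2 fold change of 1.06. The number lower was 2 without palmitate + IL-1β replicate 13, and 1 with upper-quartile scaling. The median of these proteins was 0.59 with no filter and 0.67 with at least 10 counts in every library. Steap4, a metalloreductase of inflamed and fatty tissue, had the largest fitted rise among well-counted genes without overlap. Its level was 2.18, 1.41, 2.55 and 2.40 CPM in IL-1β and 92.4, 95.4, 66.8 and 73.96 CPM in palmitate + IL-1β. Replicates 13 and 14 were above 15 and 16, and all were far above the IL-1β libraries (log2 fold change 5.25, standard error 0.20, adjusted p = 2.0e-07). Saa3, an acute-phase apolipoprotein, was at 0.781, 0.626, 0.694 and 0.785 CPM and then at 24.8, 21.0, 22.9 and 21.9 CPM, 31.4-fold higher. C3, the central protein of complement, was at 60.4, 54.6, 62.7 and 56.3 CPM in IL-1β and at 458, 452, 430.2 and 455 CPM in palmitate + IL-1β. Its level was thus high already with IL-1β and rose 7.67-fold. Lcn2, which binds bacterial siderophores, had 2 to 7 counts in the IL-1β libraries and 113 to 188 in the others. It thus passed the filter only through palmitate + IL-1β, and its fold of 33.9 rests on a low starting count. Serpina3f, a protease inhibitor, rose 23.6-fold, but 27.3% of its transcript is shared with related genes.

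Nitric oxide synthesis was led by Nos2 (ENSMUSG00000020826.10, chromosome 11 from 78811613 to 78851080 on the plus strand). Its level was 1.19, 1.13, 1.10 and 0.868 CPM in IL-1β and 36.6, 36.0, 36.0 and 34.5 CPM in palmitate + IL-1β. The 4 libraries with palmitate differed little from each other, and the log2 fold change was 5.05 (standard error 0.09, adjusted p = 9.0e-19). Slc7a2, a transporter of its substrate arginine, rose from 13.7 ± 1.17 to 59.1 ± 3.83 CPM. Ddah2, which breaks down an inhibitor of the enzyme, was the member called lower of the 12 tested of 16 (median 0.20) (-0.55 on the log2 scale), while Nos2, Slc7a2, Acod1, Gch1 and Ass1 were higher, Ass1 with 70.4% of its transcript in a copy. Acod1, for the enzyme that makes itaconate, had at most 2 counts in any IL-1β library, so it passed the filter only through palmitate + IL-1β. The nitric oxide median was 0.0740 with at least 10 counts in every library, where 4 of 11 were higher. Genes of prostaglandin synthesis and reception were 7 higher and 4 lower of 16 tested of 25 (median 0.13, 0.23 with no filter). Ptgs2, the inducible cyclooxygenase, rose 1.47-fold to 379.6 ± 16.2 CPM, Ptges, the terminal enzyme for prostaglandin E2, 1.92-fold, and the prostacyclin receptor gene Ptgir 3.83-fold. Ptgs1, the constitutive cyclooxygenase, and Ptgis, the prostacyclin synthase, fell by 0.21 and 0.26 on the log2 scale, and the receptor genes Ptger1 and Ptgfr were the other lower members.

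**Figure D2:**
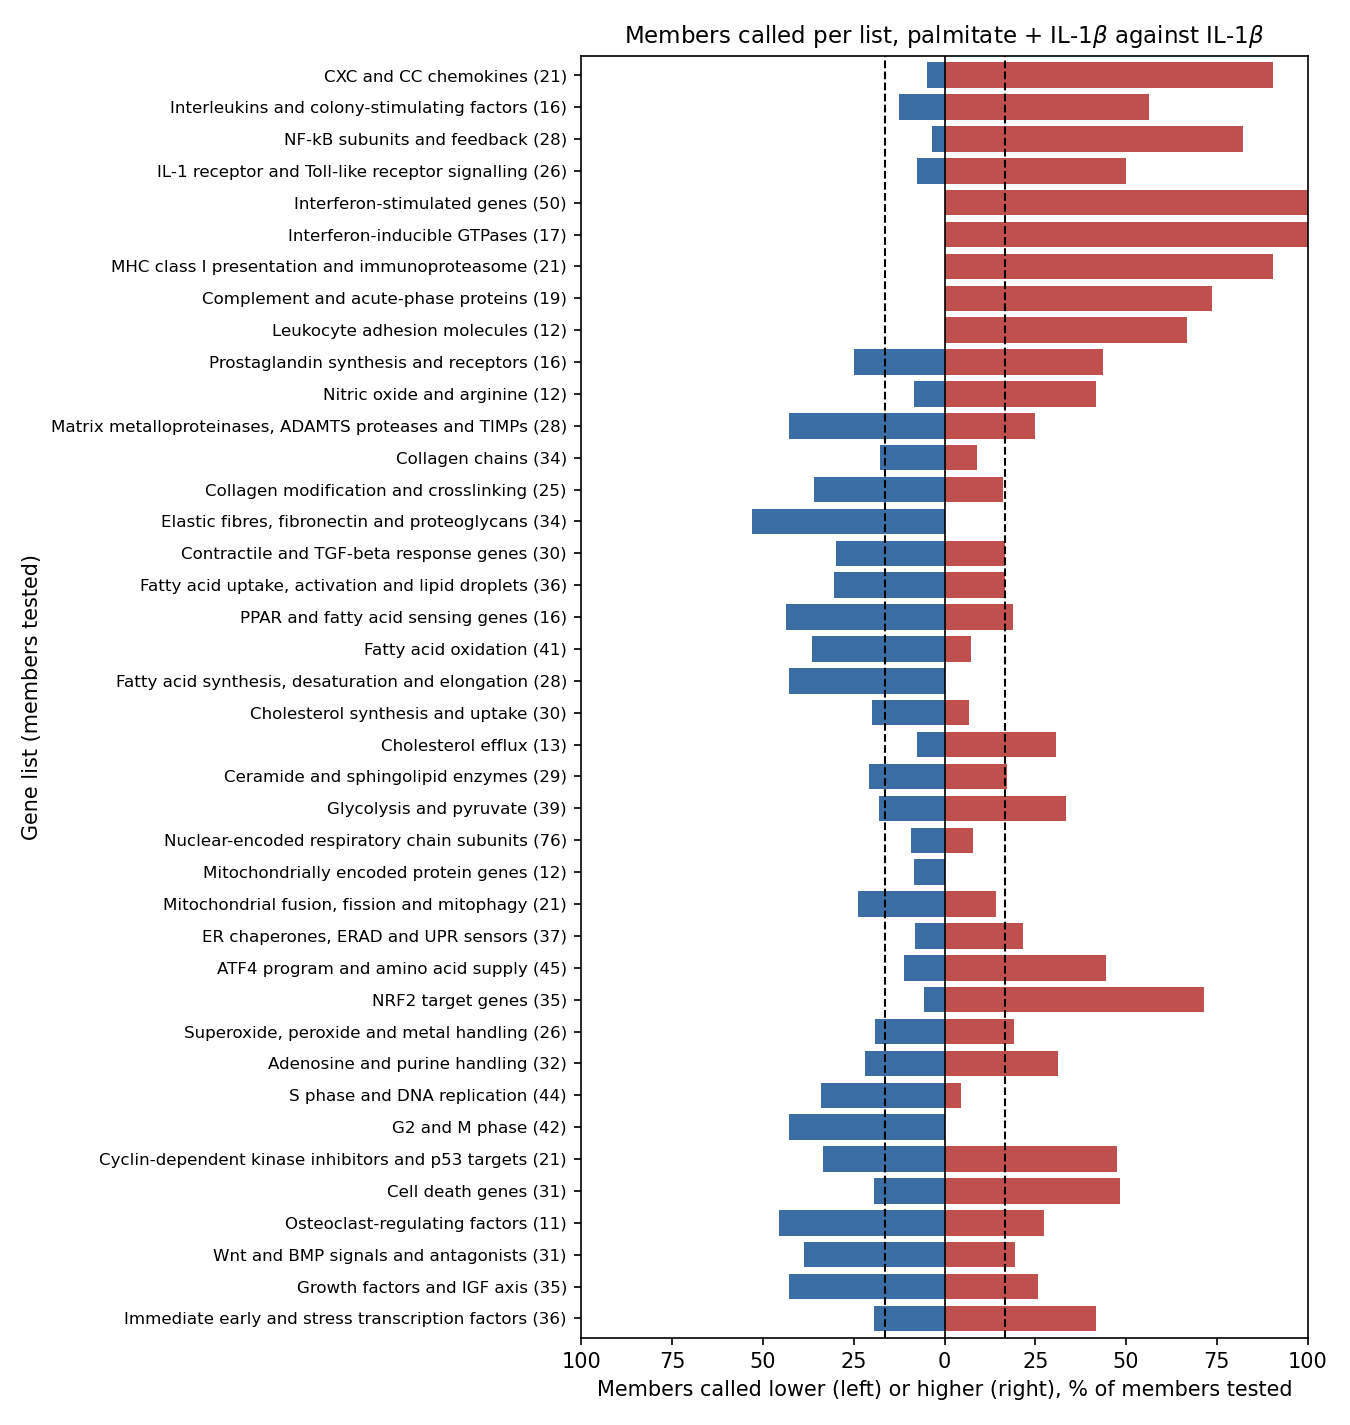
Share of the tested members of each gene list that was called higher (red, to the right) or lower (blue, to the left), in percent, with the number tested after each name. Dashed lines mark all genes tested, 16.7% higher and 16.4% lower, and the interferon lists reach 100% higher, with 2 and 1 of their members at the counting floor in IL-1β.

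Interferon-stimulated genes were called higher in 50 of 50 tested out of 53 on the list. Of these 50, 2 were at the floor in every IL-1β library and passed the filter only through palmitate + IL-1β, which fixed their direction. The other 48 were called higher as well, but not all of them were free of this effect of the filter. Isg15, with 3 to 7 counts per IL-1β library, also passed only through palmitate + IL-1β, as did Mx1 and Zbp1. With at least 10 counts required in every library, 40 of 40 were higher. The median log2 fold change was 2.42, or 2.38 with the 2 members at the floor set to their lower bounds. Interferon-inducible GTPases, a family that attacks the vacuoles of intracellular microbes, were higher in 17 of 17 tested of 21, with a median of 3.50 (3.28 with bounds). Here 1 member was at the floor in IL-1β, so the filter fixed its direction. The other 16 were higher too, though not all of them had 10 counts in every library. With at least 10 counts in every library 13 of 13 were higher. Ifnb1, the gene for interferon β, had no count in any of the 8 libraries. Mx1, of the interferon-stimulated list, was at 0.986, 0.352, 0.221 and 0.454 CPM in IL-1β and at 7.98, 12.6, 9.17 and 21.8 CPM in palmitate + IL-1β. The groups did not overlap, but replicate 16 was well above the other 3 libraries with palmitate (adjusted p = 0.00104, log2 fold change 4.71 with a standard error of 0.59). Zbp1, a sensor of left-handed nucleic acid that can trigger cell death, was at 0.411, 0.235, 0.568 and 0.330 CPM and at 8.99, 10.8, 7.68 and 13.2 CPM. Its groups were also apart, again with replicate 16 highest. Isg15, a ubiquitin-like modifier, rose from between 3 to 7 counts per library to between 108 to 157, Ifi203, a nucleic acid sensor of the AIM2-like family, rose 24.9-fold, and the GTPase Iigp1 28.0-fold. For Gbp6 and Tgtp2, GTPases that rose 26.4-fold and 22.3-fold, 95.3% and 100.0% of the transcript is shared with another gene, so their levels are uncertain. The shared part was 61.6% for Isg15, 58.0% for Ifi203 and 23.97% for Mx1.

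The interferon-stimulated genes varied together among the palmitate + IL-1β libraries. Replicate 16 held the highest level of 48 of the 50 members within its group, against 29.3% of all genes tested, and replicate 15 the lowest of 34 of the 50, against 26.6%. On the log2 scale (0.5 CPM added) the members lay at a median of 0.42 above the group mean in replicate 16 and -0.27 from it in replicate 15. Among the IL-1β libraries replicate 5 was the highest, with a median of 0.16. The median SD of a member was 0.32 in palmitate + IL-1β, against 0.11 for all genes tested and 0.06 for NF-κB genes. In the same libraries it was 0.23 for interferon-inducible GTPases, 0.12 for class I antigen presentation genes and 0.24 for mitochondrially encoded genes. Replicate 16 was the highest library of its group for 16 of 17, 16 of 21 and 10 of 12 of them, in that order. Mitochondrially encoded genes lay above the group mean by a median of 0.26 in replicate 16, 0.09 in replicate 15 and 0.45 in IL-1β replicate 5, which had the largest mitochondrial share of counts (14.0%). In replicates 16 and 5 they thus lay on the same side of the mean as the interferon-stimulated genes, and in replicate 15 on the other side. The part of this in the result was not tested. Without replicate 16, 49 of the 50 members were called, with a median log2 fold change of 2.23.

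**Figure D3:**
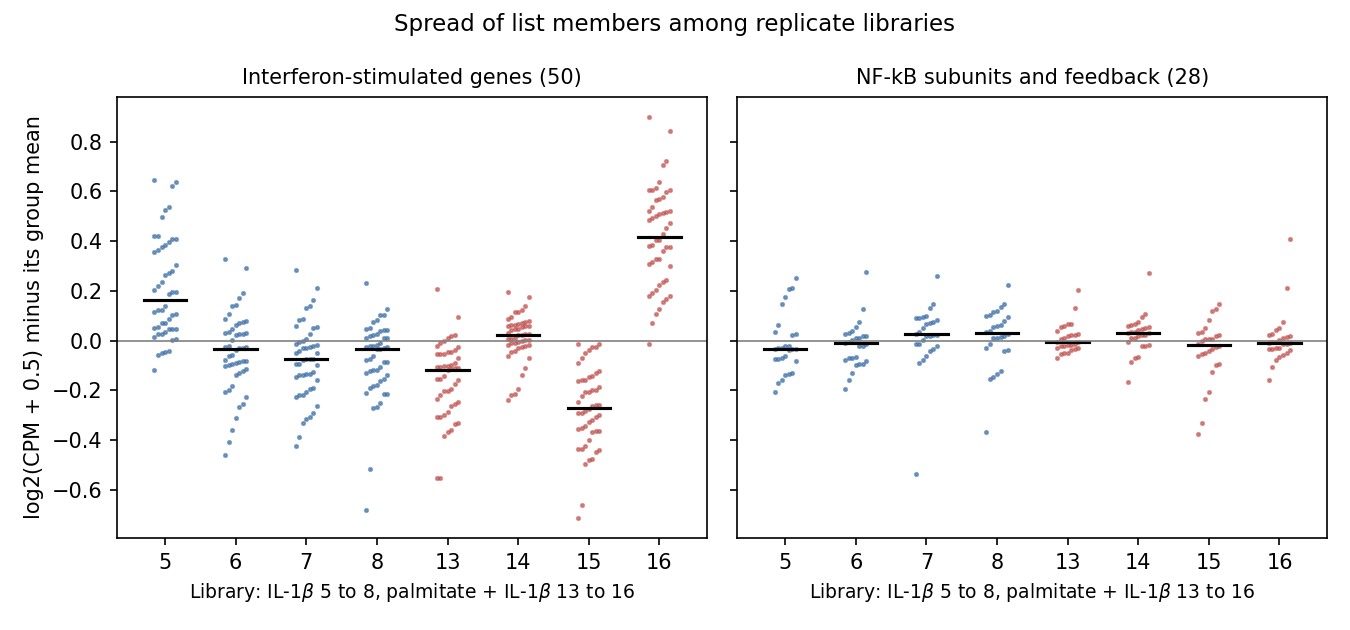
Deviation of each member from the mean of its group, in log2(CPM + 0.5), in IL-1β replicates 5 to 8 (blue) and palmitate + IL-1β replicates 13 to 16 (red), for 50 interferon-stimulated genes and 28 NF-κB genes. Points are genes and black lines medians, and the interferon-stimulated genes sit at a median of 0.42 in replicate 16 and -0.27 in replicate 15, whereas NF-κB genes stay near 0.

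Class I antigen presentation moved the same way, with 19 of 21 tested of 25 higher, 0 lower and a median of 0.93. Only the general chaperone genes Calr and Pdia3 of this list were not called, although Pdia3 was without palmitate + IL-1β replicate 14 (adjusted p = 0.0483). The immunoproteasome subunit gene Psmb8 was at 1.07, 1.33, 1.20 and 1.20 CPM in IL-1β and at 8.87, 8.94, 7.65 and 9.13 CPM in palmitate + IL-1β. That rise of 7.18-fold left a wide gap between the groups. Cd274, which encodes the checkpoint ligand PD-L1, rose from 2.16 ± 0.513 to 7.83 ± 2.42 CPM, and H2-Q4, a nonclassical class I gene, rose 8.95-fold, although 52.2% of it is shared with other class I genes.

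The upstream sequences of these genes were searched for short motifs because the members moved together. Windows held the 250 bases before the start of the main transcript in GENCODE vM39, and both strands were read for an NF-κB motif (GGGNNNTTCC) and an IRF motif (GAAANNGAA). An ATF4 motif (TGATGNAAT) and an antioxidant response motif (TGACNNNGC) were searched as well, and matches may overlap each other. The NF-κB motif was in 5.13% of the windows of 12649 protein-coding genes (those tested other than the 12 encoded in mitochondria), in 7.06% of those called higher, in 5.12% of those called lower and in 9 of the 21 chemokine windows (42.9%). The IRF motif was in 6.99%, 9.54% and 6.13% of the same windows, in 21 of the 50 windows of interferon-stimulated genes (42.0%) and in 10 of the 17 of interferon-inducible GTPases (58.8%). A match is a description of the letters, not of a bound site. The windows of Cxcl1 (chr5:91038844-91039093, plus strand), Cxcl2 (chr5:91051480-91051729, plus strand) and Il6 (chr5:30217862-30218111, plus strand) are shown for the NF-κB motif, and those of Isg15 (chr4:156285304-156285553, minus strand) and Zbp1 (chr2:173060725-173060974, minus strand) for the IRF motif. They are written 5′ to 3′ along the gene's strand in GRCm39, with matches in capitals.
Cxcl1: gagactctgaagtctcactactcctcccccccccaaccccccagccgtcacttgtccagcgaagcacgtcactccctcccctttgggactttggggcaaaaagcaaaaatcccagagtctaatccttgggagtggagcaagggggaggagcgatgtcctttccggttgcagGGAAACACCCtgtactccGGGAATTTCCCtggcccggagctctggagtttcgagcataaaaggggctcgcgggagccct
Cxcl2: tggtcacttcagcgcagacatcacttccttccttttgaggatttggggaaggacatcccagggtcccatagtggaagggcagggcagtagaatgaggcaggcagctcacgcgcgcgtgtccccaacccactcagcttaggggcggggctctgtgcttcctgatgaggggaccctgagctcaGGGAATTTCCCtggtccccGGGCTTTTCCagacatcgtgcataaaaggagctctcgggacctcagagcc
Il6: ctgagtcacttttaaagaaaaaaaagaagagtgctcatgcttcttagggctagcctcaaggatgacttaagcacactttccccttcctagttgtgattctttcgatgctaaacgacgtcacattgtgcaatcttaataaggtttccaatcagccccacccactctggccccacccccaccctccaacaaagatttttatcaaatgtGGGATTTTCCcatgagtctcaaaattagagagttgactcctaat
Isg15: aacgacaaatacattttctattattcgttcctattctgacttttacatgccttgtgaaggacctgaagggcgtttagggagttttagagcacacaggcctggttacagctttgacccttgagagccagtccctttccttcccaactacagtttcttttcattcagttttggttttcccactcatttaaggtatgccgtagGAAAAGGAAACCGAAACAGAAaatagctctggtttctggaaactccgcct
Zbp1: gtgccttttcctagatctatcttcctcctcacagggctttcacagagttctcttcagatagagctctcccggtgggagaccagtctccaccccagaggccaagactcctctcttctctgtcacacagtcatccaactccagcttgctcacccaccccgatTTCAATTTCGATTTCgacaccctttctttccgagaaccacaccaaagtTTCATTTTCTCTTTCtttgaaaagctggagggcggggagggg
In Cxcl1 and Cxcl2 the same 11 letters match on both strands, and each has a further match nearby. In Isg15 the 3 matches overlap in a row, and in Zbp1 the 4 matches form 2 overlapping pairs.

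NRF2 is the transcription factor of the antioxidant response, and 25 of 35 target genes tested of 38 were higher and 2 lower (Ftl1 and Ugdh), with a median of 0.55. Without any 1 library other than palmitate + IL-1β replicate 14 the call of Ugdh was lost (adjusted p from 0.0533 to 0.159). The number of NRF2 targets lower was 1 with DESeq2, RLE scaling, no filter or at least 10 counts in every library. Srxn1, which repairs oxidised peroxiredoxins, was at 369, 394, 413 and 399 CPM in IL-1β and 838, 911, 884 and 835 CPM in palmitate + IL-1β. Gclm, a subunit of the enzyme that limits glutathione synthesis, was at 184, 181, 188 and 192 CPM and at 378, 392, 378 and 378 CPM. Both genes about doubled in every library, by 2.201-fold and 2.05-fold, with no overlap between the groups. Slc7a11, the cystine importer, rose from 258 ± 21.5 to 754 ± 88.6 CPM, and Gsta3, a glutathione transferase, 3.16-fold. Shared sequence makes up 95.2% of Ftl1, 9.02% of Gsta3 and 5.17% of Ugdh. The antioxidant response motif was in 5 of the 35 windows of this list (14.3%) and in 10.5% of all windows. Outside this list Sod2, the manganese superoxide dismutase of mitochondria, rose from 36.4 ± 1.27 to 122 ± 2.77 CPM (6.10% shared) and the copper ferroxidase gene Cp 1.84-fold. Among superoxide, peroxide and metal genes 5 were higher and 5 lower of 26 tested of 30 (median -0.02), and Nox4, an NADPH oxidase, and Ucp2, a mitochondrial carrier, fell by 0.52 and 0.77 on the log2 scale. The superoxide median was 0.0503, -0.0029, -0.0330 and -0.0371 without IL-1β replicates 5, 6, 7 and 8, and -0.0338, -0.0083 and 0.0081 without palmitate + IL-1β replicates 13, 14 and 16. It was -0.0429 with upper-quartile scaling, 0.0016 with no filter and -0.0050 with all 16 libraries in 1 fit.

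The ATF4 program and amino acid supply genes were mixed, 20 higher and 5 lower of 45 tested of 45, with a median of 0.09. The ATF4 motif was in 4 of their 45 windows (8.89%) against 0.443% of all windows. Atf4 itself was at 304, 314, 316 and 278 CPM in IL-1β and 309, 311, 342 and 342 CPM in palmitate + IL-1β. These ranges overlapped and the difference did not pass the test (log2 fold change 0.10, standard error 0.05, adjusted p = 0.133), although it did when all 16 libraries entered a single fit (adjusted p = 0.0345). Lists can share members, and Slc7a11, named above among the NRF2 targets, had the largest rise of this list too (log2 fold change 1.55). Cebpb, a transcription factor of stress and inflammation, rose 2.23-fold. Chac1, which degrades glutathione and is a usual ATF4 target, fell from 47.5 ± 2.10 to 39.6 ± 1.92 CPM, and Fgf21, Sesn2, Slc7a5 and Vldlr were the other lower members. Fgf21 was not called without IL-1β replicate 6 or 7 or palmitate + IL-1β replicate 13 or 16 (adjusted p = 0.0910, 0.0817, 0.112 and 0.0749), nor Sesn2 without IL-1β replicate 6 or palmitate + IL-1β replicate 16 (0.0621 and 0.0545). Endoplasmic reticulum chaperones, degradation factors and stress sensors had 8 of 37 tested of 38 (median 0.04) higher and 3 lower, a share of 29.7% called that is close to the 33.1% of all genes. Their median was 0.0228 with upper-quartile scaling. Ero1a, the oxidase that helps form disulfides, rose 1.33-fold, and the sensor genes Ern1 and Atf6 1.15-fold and 1.15-fold. The third sensor gene, Eif2ak3 (Perk), was at 48.1 ± 2.196 and 49.9 ± 1.84 CPM, a difference within the spread (adjusted p = 0.447). Eif2s1, for the subunit eIF2α that Perk phosphorylates, rose 1.24-fold, from 148 ± 6.09 to 184 ± 10.6 CPM (27.9% shared). Eif2a, which encodes a different initiation factor in spite of its symbol, fell by 0.16, a call lost without IL-1β replicate 7 or palmitate + IL-1β replicate 15 (adjusted p = 0.0778 and 0.0788). Edem1, Herpud1 and Derl1, which serve the removal of misfolded proteins, were the lower members, and 14.8% of Derl1 is shared.

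Most lists of lipid handling had more members lower than higher. Pparg, the receptor that drives fat storage, was at 17.5, 18.3, 17.7 and 15.9 CPM in IL-1β and at 8.62, 8.32, 9.68 and 10.8 CPM in palmitate + IL-1β. Plin4, which coats lipid droplets, was at 61.3, 64.4, 69.1 and 67.1 CPM and at 23.8, 22.3, 22.8 and 24.7 CPM. Neither gene overlapped between the groups, and the log2 fold changes of -0.90 and -1.48 had standard errors of 0.08 and 0.06 and adjusted p values of 6.7e-08 and 6.6e-14. In the list of fatty acid uptake, activation and droplet genes 6 were higher and 11 lower of 36 tested of 48 (median -0.10), among them G0s2, an inhibitor of the lipase ATGL (-0.79). Among PPAR and fatty acid sensing genes 3 were higher (Ppard, Angptl4 and Pdk4) and 7 lower of 16 tested of 25 (median -0.09). This median was -0.0504 without palmitate + IL-1β replicate 16, and -0.16 with no filter. Angptl4, which restrains lipoprotein lipase, reached 152 ± 5.53 CPM from 100.5 ± 3.34, and Ppard, a receptor that senses fatty acids, rose 1.60-fold.

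Fatty acid oxidation genes were 15 lower and 3 higher (Acot7, Acot9 and Abcd3) of 41 tested of 44, with a median of -0.12. Abcd3 was not called without IL-1β replicate 7 or palmitate + IL-1β replicate 13 (adjusted p = 0.0514 and 0.0852). Acaa2, the thiolase of the last step, fell from 43.0 ± 3.30 to 27.8 ± 0.762 CPM, and Hadh, of the step before it, by 0.40 on the log2 scale. Fatty acid synthesis, desaturation and elongation genes were 12 lower and 0 higher of 28 tested of 34 (median -0.13), and Elovl6, which extends palmitate to stearate, fell by 0.34. The number higher in synthesis was 2 without palmitate + IL-1β replicate 16, and 1 with at least 10 counts in every library. The synthesis median was -0.21 with no filter. Cholesterol synthesis and uptake had 6 lower and 2 higher of 30 tested of 31 (median -0.08), a share of 26.7% called, and Hmgcs1 fell by 0.33. Of oxysterol and efflux genes 4 were higher (Cyp7b1, Ch25h, Scarb1 and Abca2) and 1 lower (Cyp27a1, -1.39) of 13 tested of 14 (median 0.17). Of the transcripts of Acot9, Elovl6, Hmgcs1 and Cyp7b1, 84.5%, 14.7%, 9.67% and 5.76% are shared with other genes. Without IL-1β replicate 5 or palmitate + IL-1β replicate 14 or 15 neither Scarb1 (adjusted p = 0.0848, 0.0833 and 0.0836) nor Abca2 (0.0832, 0.0758 and 0.0778) was called, and the same held for Scarb1 without IL-1β replicate 7 (0.0544) and Abca2 without replicate 6 (0.0737). The number of efflux genes lower was 2 without palmitate + IL-1β replicate 13, and 0 with at least 10 counts in every library. The efflux median was 0.0866 with thinned counts. Ch25h, which makes 25-hydroxycholesterol, was at 3.70, 2.97, 2.55 and 3.59 CPM in IL-1β and 11.8, 12.8, 12.7 and 9.24 CPM in palmitate + IL-1β. Cyp7b1, which breaks that oxysterol down, was at 7.56, 7.94, 8.01 and 7.89 CPM and then 39.8, 40.5, 38.0 and 32.1 CPM. The maker and the remover thus rose together, 3.66-fold and 4.79-fold, with no overlap between the groups. Ceramide and sphingolipid enzymes were divided, 5 higher and 6 lower of 29 tested of 36 (median 0.01). The number higher of ceramide enzymes was 3 without IL-1β replicates 5 and 6, and 3 without palmitate + IL-1β replicate 13, the number lower was 2 without palmitate + IL-1β replicate 16, and their median -0.0064, -0.0148 and 0.0248 without IL-1β replicates 5, 6 and 8, and -0.0212, -0.0035 and 0.0238 without palmitate + IL-1β replicates 13, 14 and 15. In the other settings the number higher was 3 with no filter, and the median -0.0069 with upper-quartile scaling, -0.0077 with at least 10 counts in every library, 0.0307 with all 16 libraries in 1 fit and -0.0101 with thinned counts. Sptlc2, of the entry step that uses palmitoyl-CoA, rose 1.21-fold and Smpd3, a sphingomyelinase, 2.04-fold.

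Glycolysis and pyruvate genes had 13 higher and 7 lower of 39 tested of 40 (median 0.04). The glucose transporter gene Slc2a1 rose from 63.7 ± 4.02 to 137 ± 7.56 CPM, Hk2, which traps glucose in the cell, 2.06-fold, and Pfkfb3, which activates phosphofructokinase, 1.84-fold. Pfkm, the muscle form of phosphofructokinase, fell by 0.44 on the log2 scale. The glycolysis median was 0.0703, 0.0770 and 0.0140 without IL-1β replicates 6, 7 and 8, and 0.0270 and 0.0715 without palmitate + IL-1β replicates 14 and 16, and 0.0219 with upper-quartile scaling, and the number lower was 4 without IL-1β replicate 7. The respiratory chain is encoded in the nucleus and in mitochondria. Of its nuclear-encoded subunits 6 were higher and 7 lower of 76 tested of 78 (median 0.01), 17.1% against 33.1% of all genes. Leaving out a library moved these numbers. Those higher were 10 and 3 without IL-1β replicates 5 and 8, and 2 without palmitate + IL-1β replicates 15 and 16, and those lower were 4 without IL-1β replicate 7, and 3, 11 and 4 without palmitate + IL-1β replicates 13, 15 and 16. The median of the nuclear-encoded list was 0.0353, 0.0156 and -0.0400 without IL-1β replicates 5, 6 and 8, and 0.0311, 0.0145, -0.0210 and 0.0023 without palmitate + IL-1β replicates 13, 14, 15 and 16. It was 0.0134 with DESeq2, -0.0146 with upper-quartile scaling, 0.0130 with RLE scaling, 0.0184 with no filter, 0.0118 with at least 10 counts in every library, 0.0231 with all 16 libraries in 1 fit and 0.0186 with thinned counts. Atp5l, of ATP synthase, was 1.63-fold higher, but 61.8% of it is shared with a copy. Cycs, for cytochrome c, was called higher (0.47, adjusted p = 0.0219), a call lost without IL-1β replicate 7 or palmitate + IL-1β replicate 15 or 16 (adjusted p = 0.0629, 0.0569 and 0.0612). Sdhd, of complex II, fell by 0.29, whereas Sdhb, of the same complex, lay between 27.5 to 31.7 CPM and between 25.02 to 30.2 CPM and was called only without palmitate + IL-1β replicate 15 (adjusted p = 0.0373, against 0.152 with it). Uqcrc2, of complex III, was at 55.9 ± 1.56 and 57.2 ± 0.220 CPM (adjusted p = 0.603). Among mitochondrially encoded genes only mt-Co1 was called of 12 tested of 13 (median 0.11). The gene was at 7440.2, 6700.3, 6430.0 and 6789 CPM in IL-1β and 5280.4, 5848, 5319 and 5608 CPM in palmitate + IL-1β, a fall by 0.31 without overlap, but all of its sequence also lies in a nuclear copy. Fusion, fission and mitophagy genes were 3 higher and 5 lower of 21 tested of 22 (median -0.03), with Bnip3, a mitophagy receptor, 1.29-fold higher and Mfn2, which fuses outer membranes, at a log2 fold change of -0.18. The shared part is 29.7% of Bnip3 and 34.6% of Cycs. Of the mitochondrially encoded genes 1 without IL-1β replicates 5 and 6, and 1 without palmitate + IL-1β replicates 13 and 14 was higher, as was 1 with DESeq2, no filter or all 16 libraries in 1 fit, and their median was 0.41, 0.0495 and -0.0615 without IL-1β replicates 5, 7 and 8, and 0.18 and 0.0040 without palmitate + IL-1β replicates 14 and 16. Of the fusion, fission and mitophagy genes 3 without IL-1β replicates 6 and 7, and 3 without palmitate + IL-1β replicates 13 and 15 were lower, as were 3 with DESeq2, RLE scaling, no filter or at least 10 counts in every library, and the median was -0.0613 without IL-1β replicate 5, and -0.0513, -0.0686 and -0.0110 without palmitate + IL-1β replicates 13, 14 and 16, and -0.0533 with upper-quartile scaling.

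Fibroblasts build the fibres and proteoglycans of the matrix. Of elastic fibre, fibronectin and proteoglycan genes 18 were lower and 0 higher of 34 tested of 36, with a median of -0.20. Ogn, Omd and Aspn are small leucine-rich proteoglycans that lie side by side on chromosome 13 and regulate collagen fibrils. Ogn was at 152, 136, 124 and 130.1 CPM in IL-1β and at 50.7, 44.3, 32.0 and 46.2 CPM in palmitate + IL-1β. Aspn was at 437, 398, 374 and 379 CPM and 184, 184, 131 and 183 CPM, and Omd fell from between 13.4 to 17.96 CPM to between 2.99 to 5.12 CPM. In all 3 genes replicate 15 was the lowest library, no library with palmitate reached the lowest without it, and the log2 fold changes were -1.64, -1.22 and -1.86. Fbn2, of elastic microfibrils, fell by 0.90 and Has2, a hyaluronan synthase, by 0.91. Collagen chains were 3 higher and 6 lower of 34 tested of 44 (median -0.03), with 26.5% called against 33.1% of all genes. Col1a2, of type I collagen, fell from 7164 ± 67.6 to 5916 ± 215 CPM, Col11a1, of a fibril-nucleating collagen, fell by 0.59, and Col5a3, Col7a1 and Col18a1 were higher, Col5a3 by 1.46-fold. Without IL-1β replicate 7 Col7a1 was not called (adjusted p = 0.0678). For collagen chains the median was -0.0523 without IL-1β replicate 8, and -0.0587, -0.0144 and -0.0220 without palmitate + IL-1β replicates 13, 14 and 16. It was -0.0551 with upper-quartile scaling, -0.0209 with no filter and -0.0172 with all 16 libraries in 1 fit.

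Enzymes that modify and crosslink collagen were 9 lower and 4 higher of 25 tested of 25 (median -0.07). The number higher was 2 without IL-1β replicates 5, 6 and 8, and 2 with upper-quartile scaling, and the median -0.0424 without palmitate + IL-1β replicate 16. Pcolce, which helps to trim procollagen, fell by 0.38, and P4ha2, a prolyl hydroxylase, rose 1.40-fold. Matrix proteases and their inhibitors were 7 higher and 12 lower of 28 tested of 32 (median -0.12). Here the median was -0.0355 and -0.0582 without IL-1β replicates 5 and 8, and -0.0578 with no filter and -0.0728 with all 16 libraries in 1 fit. Mmp3, stromelysin, was at 11.8, 11.3, 9.08 and 10.5 CPM in IL-1β and at 43.2, 44.5, 42.6 and 40.2 CPM in palmitate + IL-1β. Mmp13, a collagenase, rose 1.96-fold and Mmp9, a gelatinase, 1.82-fold, with no overlap in any of the 3, while 22.9% of Mmp3 is shared with a pseudogene. Adamts5, Adamts1 and Adamts9, which cut aggrecan or versican, fell by 0.77, 0.74 and 1.14 on the log2 scale. Contractile and TGF-β response genes were 5 higher and 9 lower of 30 tested of 30 (median -0.06). Their median was -0.10 without palmitate + IL-1β replicate 15. Tgfb3, a ligand, fell from 137 ± 3.33 to 88.1 ± 2.34 CPM, Tgfbr3, a coreceptor, rose 2.07-fold (5.01% shared), and the inhibitor Smad6 and the matricellular gene Ccn1 fell by 0.87 and 0.55.

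Genes of adenosine and purine handling were 10 higher and 7 lower of 32 tested of 43 (median -0.03). The purine median was -0.0183, -0.0653 and -0.0502 without IL-1β replicates 5, 6 and 8, and -0.0507 and 0.0154 without palmitate + IL-1β replicates 14 and 16. It was -0.0524 with upper-quartile scaling, -0.0120 with all 16 libraries in 1 fit and -0.0514 with thinned counts. Nt5e, which makes adenosine from AMP outside the cell, was at 17.5, 19.4, 18.8 and 17.4 CPM in IL-1β and at 9.60, 9.66, 11.1 and 8.51 CPM in palmitate + IL-1β. Ampd3, which turns AMP into IMP inside the cell, was at 109.9, 104, 107 and 106 CPM and at 239, 245, 254 and 253 CPM. These enzymes of AMP thus moved in opposite directions, by log2 fold changes of -0.91 and 1.22, each without overlap. P2ry14, a receptor for UDP sugars, fell by 1.34 and Adk, which phosphorylates adenosine, by 0.29, whereas Enpp2, which makes lysophosphatidic acid, rose 3.38-fold. Adora2b, an adenosine receptor gene, was at 0.719 ± 0.186 and 1.11 ± 0.114 CPM and did not pass the test (adjusted p = 0.0523), but did without IL-1β replicate 6 (adjusted p = 0.0277), with at least 10 counts required in every library (0.0374) or with all 16 libraries in the fit (0.0375). Entpd1 (0.269) and Ada (0.407) did not pass it either, and Adora2a had 2 counts or fewer in any library.

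Cell cycle genes were mostly lower where they were called. S phase and replication genes were 15 lower and 2 higher of 44 tested of 44 (median -0.19), and G2 and M phase genes 18 lower and 0 higher of 42 tested of 42 (median -0.17). The number higher was 1 without palmitate + IL-1β replicate 14 for S phase, and for G2 and M phase 1 without IL-1β replicate 6, and 1 without palmitate + IL-1β replicates 14 and 15, and 1 with all 16 libraries in 1 fit. Rrm2, a subunit of ribonucleotide reductase, fell from 38.5 ± 1.89 to 25.6 ± 3.12 CPM, and Ccnb2, a mitotic cyclin, from 12.4 ± 0.991 to 8.10 ± 0.466 CPM. Brca1, of homologous recombination, fell by 0.47 and Pole, of the replicative polymerase, by 0.36. Inhibitors of cyclin-dependent kinases and p53 targets were 10 higher and 7 lower of 21 tested of 21 (median 0.12), with the imprinted inhibitor gene Cdkn1c at a log2 fold change of -1.43, the inhibitor gene Cdkn2b 1.67-fold higher and the kinase gene Plk2 1.64-fold higher. This list's median was 0.0692 without IL-1β replicate 5. Cell death genes were 15 higher and 6 lower of 31 tested of 38 (median 0.17). Casp4, the caspase that senses lipopolysaccharide, rose from 12.0 ± 0.658 to 29.8 ± 2.08 CPM and Mlkl, the executioner of necroptosis, 2.18-fold. Bcl2l11 and Pmaip1, which encode the BH3-only proteins Bim and Noxa, fell by 0.74 and 0.51. The shared part is 23.3% of Rrm2 and 14.2% of Mlkl.

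Signals to neighbouring cells changed in both directions. Growth factors and the IGF axis were 9 higher and 15 lower of 35 tested of 37 (median -0.15). Fgf7, the keratinocyte growth factor, was at 85.9, 79.5, 79.7 and 78.1 CPM in IL-1β and 181, 176, 174 and 195 CPM in palmitate + IL-1β. Hgf, another growth factor made by fibroblasts for epithelium, lay between 15.8 to 17.6 CPM in IL-1β and between 9.33 to 10.2 CPM in palmitate + IL-1β. Fgf7 was higher and Hgf lower in every library with palmitate (1.17 and -0.76 on the log2 scale). Ereg, an EGF receptor ligand, rose 2.58-fold and Vegfd, a growth factor of lymphatic vessels, fell by 1.12. Wnt and BMP signals and antagonists were 6 higher and 12 lower of 31 tested of 42 (median -0.11), with Bmp6 3.65-fold higher, Wnt5a at a log2 fold change of -0.64 and Wnt9a down from 8.88 to 4.44 CPM. The Wnt and BMP median was -0.0751 without IL-1β replicate 5, and -0.0579, -0.0671 and -0.22 without palmitate + IL-1β replicates 14, 15 and 16. Among factors that regulate osteoclasts, 11 tested of 15 (median -0.13), 3 were higher (Csf1, Il34 and Bmp2) and 5 lower (Wnt5a, Sfrp1, Postn, Sema3a and Tnfrsf11b). The osteoclast median was -0.0429, -0.22 and -0.22 without IL-1β replicates 6, 7 and 8, and -0.20, -0.0215 and -0.21 without palmitate + IL-1β replicates 13, 15 and 16. It was -0.24 with no filter and -0.0703 with thinned counts. Tnfrsf11b, which encodes the decoy receptor osteoprotegerin, fell from 59.1 ± 1.34 to 43.4 ± 3.01 CPM. Immediate early and stress transcription factors were 15 higher and 7 lower of 36 tested of 37 (median 0.08). Cebpd, a factor of the acute-phase response, rose 4.54-fold and Socs3, the feedback inhibitor of Il6 signalling, 3.78-fold, whereas the immediate early genes Egr1 and Nr4a1 fell by 0.58 and 1.01.

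The largest fall among well-counted genes without overlap was that of Mest, an imprinted gene of the hydrolase family (chromosome 6 from 30723546 to 30752058 on the plus strand). It was at 35.1, 32.4, 32.9 and 34.0 CPM in IL-1β and at 8.01, 7.31, 4.94 and 5.04 CPM in palmitate + IL-1β. The groups were widely apart, and the log2 fold change was -2.40 with an adjusted p of 2.7e-08. Ndnf, a secreted neurotrophic factor, fell by 2.21, Reps2, of endocytosis, by 2.29, and the phosphatase gene Ppm1e by 1.92. Rab27a, which docks secretory vesicles, Avpr1a, a vasopressin receptor, Rgs2, which damps G protein signals, and Osr2, a transcription factor of palate and tooth, fell by 1.85, 1.77, 1.72 and 1.71. Plekhg4, a guanine nucleotide exchange factor, and St8sia2, a polysialyltransferase, fell by 1.69 and 1.66. Among long noncoding genes 231 of 1375 were called (16.8%, against 33.1% of all genes tested). Gm16685 was at 8.06, 6.06, 7.41 and 7.64 CPM in IL-1β and at 42.8, 45.6, 44.2 and 49.0 CPM in palmitate + IL-1β, 6.22-fold higher without overlap, and Gm17173 rose 5.42-fold. Gm29233 and Gm43672 fell by 1.24 and 1.18, and 25.6% of Gm17173 and 30.6% of Gm43672 are shared with other genes.

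The effect of palmitate beside IL-1β was set against its effect without IL-1β, which used the other 8 libraries (palmitate and BSA). The difference between these effects was tested as an interaction in a fit of all 16 libraries. It passed the threshold in 324 of 16306 genes (1.99%), and in 298 of these the term was negative. The effect was smaller beside IL-1β in 283 of the 324. Nos2 was at 0.0861 CPM in BSA, 34.7 in palmitate, 1.07 in IL-1β and 35.7 in palmitate + IL-1β. With 0 to 7 counts in the BSA libraries, its change without IL-1β and the size of its interaction term (-3.45, adjusted p = 2.1e-06) rest on low counts. Icam1 was at 1.19, 109.8, 13.2 and 122 CPM in the same order, with log2 fold changes of 6.51 and 3.20 and an interaction of -3.29 (adjusted p = 1.2e-15). Slc7a11 was at 49.0, 382, 258 and 754 CPM, with an interaction of -1.40 (adjusted p = 4.2e-07). In all 3 genes the mean in IL-1β was above that in BSA. For Icam1 and Slc7a11 palmitate + IL-1β had the highest mean of the 4 groups. For Nos2 the means of palmitate and palmitate + IL-1β were close and are not ranked. The BSA and palmitate means were scaled in the fit of all 16 libraries, the others in the fit of the 8 libraries compared. For Mx1, Isg15, Zbp1, Ifi203 and Iigp1 no interaction passed the threshold (adjusted p = 0.867, 0.972, 0.178, 0.869 and 0.665), which does not show that the effects were alike. Nor did one for Nt5e, Pparg, Mest, Ogn or Plin4 (adjusted p = 0.225, 0.800, 0.884, 0.930 and 0.759), whose log2 fold changes with palmitate were -1.17, -0.99, -2.50, -1.70 and -1.38 without IL-1β.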

How the data were processed

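The authors deposited raw gene counts for 16 libraries, made with Trimmomatic 0.39, STAR 2.7.10a and HTSeq 2.0.9 on GRCm39 per the labels. A kit for stranded total RNA is named in the labels, whereas the study's methods give an oligo(dT) full-length kit, so the library type is uncertain. The summary lines of the counting tool (18.5% to 20.4% of each of the 8 libraries) were left out. Genes passing filterByExpr (minimum count 10, minimum total 15) were fitted with edgeR 4.0.16 (TMM, robust quasi-likelihood test, Benjamini-Hochberg over all genes tested) in R 4.3.3. The 8 libraries had a fit of their own, and the interaction used all 16. Alternatives also used DESeq2 1.42.0. The method was tested on simulated data.

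Named genes had an adjusted p under 0.05, no overlap and an average log2 CPM of at least 1: the 12 largest changes per direction among protein-coding genes, up to 4 per list and direction, and 2 long noncoding genes per direction. Added to these were genes of the study's heatmaps and members named as not passing the test. The members and lists were chosen with earlier results of these data known. The text names only some of the genes the rule allows, and some items are not reported. That selection, the genes plotted, the members named where 5 or fewer had a call, and the pattern of replicates 15 and 16 were chosen after values were seen.

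Positions and promoters came from GENCODE vM39 and the GRCm39 genome, and 56323 of 56941 genes matched. Iigp1b was not in the table, and Atp5l is now Atp5mg. Shared sequence means at least 95% identity over at least 100 bases on the same strand, found with BLAST 2.17.0.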

Additional observations from a re-analysis of the deposited data

Results flagged for a closer look

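Among the genes named, 23 of 380 groups of 4 libraries had a library whose gap to the nearest other, divided by the range of the group, exceeded Dixon's 95% critical value, and chance puts about 1 in 20 such groups apart. In IL-1β replicate 5 Isg15 was at 0.288 CPM against 0.0946 to 0.124 CPM. This gap of Isg15 is that of 7 counts to 3, the counting floor, in each of the others. In IL-1β replicate 6 Ccl28 was at 5.79 CPM against 7.82 to 8.10 CPM and St8sia2 was at 14.3 CPM against 13.8 CPM in the others. In IL-1β replicate 7 Nfkb1 was at 79.6 CPM against 73.9 to 74.4 CPM. In IL-1β replicate 8 Adk was at 28.1 CPM against 31.2 to 31.7 CPM and Atf6 was at 113 CPM against 99.6 to 101.2 CPM. In the same library Bnip3 was at 57.5 CPM against 63.3 to 63.9 CPM and Ern1 was at 35.7 CPM against 33.8 to 34.1 CPM. In the same library Fbn2 was at 130.3 CPM against 87.9 to 95.02 CPM and P4ha2 was at 45.8 CPM against 50.5 to 51.0 CPM. In palmitate + IL-1β replicate 14 Gclm was at 392 CPM against 378 CPM in the others and Ppm1e was at 1.501 CPM against 0.796 to 0.913 CPM. In palmitate + IL-1β replicate 15 Adamts9 was at 1.91 CPM against 1.34 to 1.39 CPM and Aspn was at 131 CPM against 183 to 184 CPM. In the same library Hk2 was at 70.7 CPM against 62.9 to 63.5 CPM and Ppard was at 79.9 CPM against 72.8 to 73.8 CPM. In the same library Tgfbr3 was at 105 CPM against 97.4 to 98.5 CPM and Wnt5a was at 93.6 CPM against 89.4 to 90.1 CPM. In palmitate + IL-1β replicate 16 Cxcl9 was at 12.8 CPM against 8.65 to 8.84 CPM and Derl1 was at 71.6 CPM against 82.7 to 84.7 CPM. In the same library H2-Q4 was at 16.1 CPM against 12.4 to 12.8 CPM and Nr4a1 was at 1.46 CPM against 1.98 to 2.02 CPM. In the same library Vcam1 was at 554 CPM against 588 to 594 CPM. By the interaction test, palmitate acted differently beside IL-1β than without it on 46 of the 190 named genes tested, which had been picked by the size of their change, against 324 of 16306 genes in all (1.99%). All of these terms were negative, as were 298 of the 324. For 42 genes that were higher beside IL-1β this means a smaller rise there than without IL-1β, whereas Pole, Brca1, Rrm2 and mt-Co1 were lower beside IL-1β and had log2 fold changes of smaller size without it (0.16, 0.03, -0.23 and -0.01). All 4 BSA libraries had 1 count or fewer of Cxcl9, so the size of its fitted term (-4.01) is not determined, and with BSA set to the floor of 3 counts per library the term came to at most -1.73. At least 1 BSA library had 3 counts or fewer of Nos2 (0 to 7), Saa3 (1 to 5), Cxcl2 (3 to 5) and Psmb8 (2 to 18), so the sizes of their fitted terms (-3.45, -3.07, -3.79 and -1.60) are uncertain. These 5 genes are left out of the order by size. In log2 units the other fitted terms were, first, Icam1 (-3.29), Cxcl5 (-3.20), Ccl5 (-2.87), Cxcl1 (-2.69), Gm16685 (-2.46), Ccl2 (-2.31), Steap4 (-2.06), Vcam1 (-1.67), Angptl4 (-1.65), Zc3h12a (-1.60), C3 (-1.58) and Cxcl16 (-1.52). Next in size were Slc7a11 (-1.40), Gbp6 (-1.38), Lif (-1.34), Tlr2 (-1.24), Gch1 (-1.16), Bcl3 (-1.13), Nfkbiz (-1.11), Casp4 (-1.09), Cyp7b1 (-1.02), Ampd3 (-0.94), Csf1 (-0.91) and Ch25h (-0.86). They were followed by Il1rn (-0.71), Mmp13 (-0.63), Plk2 (-0.62), Slc7a2 (-0.58), Lbp (-0.55), Pole (-0.50), Cebpb (-0.49), Brca1 (-0.49), Fgf7 (-0.48), Gclm (-0.46), Tgfbr3 (-0.44) and Mmp3 (-0.40). The smallest were those of Srxn1 (-0.38), Rrm2 (-0.34), Hk2 (-0.33), mt-Co1 (-0.28) and Nfkb1 (-0.26).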

How the results depend on the processing

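The alternatives were DESeq2, upper-quartile or RLE scaling, every gene left unfiltered, a minimum of 10 counts per library, all 16 libraries in 1 fit, no mitochondrially encoded or ribosomal RNA genes, counts thinned to the shallowest library, and leaving out each library. Without a library 4398 to 4986 genes were called, 2253 to 2507 higher and 2145 to 2526 lower, and the interaction passed in 258 to 371. The other settings gave 4899 to 5712 calls, and the interaction 285 to 413. Upper-quartile scaling lowered the share of calls that were higher from 50.4% to 44.5%. A required change of more than 2-fold left 657 genes, by its construction. Of 190 named genes tested 176 were called, 164 of them under every alternative that gave a value, 12 lost the call under at least 1, and 5 others gained it. No value came from the setting of at least 10 counts for Acod1, Cxcl9, Cyp27a1, Isg15, Lcn2, Mx1, Serpina3f and Zbp1, or from that without mitochondrially encoded genes for mt-Co1.

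The calls lost were those of Rel, Cycs, Eif2a, Ctf1, Tlr6, Ugdh, Fgf21, Sesn2, Abcd3, Scarb1, Abca2 and Col7a1, and the cause was not tested. Their adjusted p over the alternatives ran from 0.00737 to 0.0633 for Rel, 8.5e-09 to 0.0629 for Cycs, 0.0100 to 0.0788 for Eif2a, 0.0332 to 0.175 for Ctf1, 0.0157 to 0.132 for Tlr6 and 0.0217 to 0.159 for Ugdh. For Fgf21 they ran from 0.0104 to 0.112, for Sesn2 from 0.00817 to 0.0621, for Abcd3 from 0.00289 to 0.0852, for Scarb1 from 0.00394 to 0.0848, for Abca2 from 0.00899 to 0.0832 and for Col7a1 from 0.00157 to 0.0678. Calls were gained by Sdhb (adjusted p 0.0373 to 0.340), Atf4 (0.0345 to 0.392), Adora2b (0.0277 to 0.129), Alcam (0.0233 to 0.300) and Pdia3 (0.0101 to 0.225). The settings other than a left-out library that ended a call were DESeq2, RLE scaling and no filter for Ctf1 and Ugdh, thinned counts for Ctf1 and Tlr6, at least 10 counts for Ugdh, and upper-quartile scaling and no filter for Abcd3. Those that gained a call were all 16 libraries in 1 fit for Atf4, Adora2b, Alcam and Pdia3, at least 10 counts for Adora2b, and no filter for Pdia3. Only for genes that were not called did the sign change. With each library left out in turn Calr ran from -0.0485 (without palmitate + IL-1β replicate 16) to 0.0665, Jam3 from -0.0224 (without IL-1β replicate 5, and also negative without palmitate + IL-1β replicate 15) to 0.0697, and F11r from -0.0624 to 0.0656 (positive without IL-1β replicate 7 or 8 or palmitate + IL-1β replicate 13 or 14). F11r was at 4.0e-04 with DESeq2 and at 0.0094 with all 16 libraries.

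No paired analysis was possible because the library numbers, 1 to 16, are not shared between groups. Genes with few counts, such as Tnf and Il1b, were left out by the filter, and with no filter neither of these was called (adjusted p = 0.925 and 0.531).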
